A study of Homo sapiens with 24 samples.

Results

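The genes described are 7 that handle osmolytes or switch on when a cell is placed in hypertonic medium: AKR1B1, SLC6A12, SLC6A6, SLC5A3, SLC38A2, NFAT5 and SGK1. They were matched by symbol to the Ensembl identifiers of the deposited count files, which list 62703 genes, and all 7 were found. Of the 7, 6 passed the filter on low counts and were tested among 16600 genes. The other, SLC5A3, was listed at 0 counts in all 24 libraries.

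A cell in hypertonic medium loses water, and over hours to days it replaces the inorganic ions it takes up at first by compatible organic osmolytes. The transcription factor NFAT5, also called tonicity-responsive enhancer binding protein, drives much of this change: it induces aldose reductase (AKR1B1), which makes sorbitol from glucose, and the membrane carriers that bring in betaine (SLC6A12), taurine (SLC6A6), myo-inositol (SLC5A3) and neutral amino acids (SLC38A2). SGK1 is a kinase whose transcript is induced by cell shrinkage and by glucocorticoids, and it acts on ion channels and transporters. Cartilage cells live in a matrix whose fixed charges hold the tissue above the tonicity of plasma, and that tonicity drops as the matrix is lost in osteoarthritis.

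RNA-seq was performed on T/C-28a2, an immortalised human costal chondrocyte line, in 24 libraries with 4 in each of 6 groups. Parental cells were kept in isotonic medium (WT Ctr) or in 100 mM sorbitol for 7 days (WT Sor). Parental cells transfected for 48 h with a plasmid encoding WNK2, a kinase of the WNK family that senses osmotic stress, were then kept in the same isotonic medium (WNK2 trans Ctr) or in 100 mM sorbitol for 7 days (WNK2 trans Sor). WNK2 null cells, in which CRISPR/Cas9 removed the exon with the start codon, were likewise kept without (WNK2- Ctr) or with sorbitol (WNK2- Sor). Doses and times are those of the study's methods. The WNK2- cells are a clonal line set against an uncloned parental line, so clone and genotype cannot be told apart. Transfected cells were compared with untransfected cells, so the plasmid and the act of transfection cannot be told apart from WNK2 itself. The medium after transfection held less serum than the growth medium. The labels number 4 samples in each group and do not say whether they came from separate cultures. The study's methods call them biological replicates, and p-values measure the spread between these samples.

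Total counts ran from 14153002 to 25664619 per library, and no 2 libraries of a group were alike within counting noise. The defining markers of cartilage were low: COL2A1 had 5 to 224 raw counts in a library, ACAN 4 to 179, COMP 0 to 64, COL9A1 0 to 3, and SOX9 was listed at 0 throughout. KRT18, a keratin of simple epithelia, had 3050 to 8255, but EPCAM, the other epithelial marker, had 1 to 40. The endothelial adhesion molecules PECAM1 and CDH5 had 171 to 1033 and 17 to 1033, and the endothelial marker VWF had 3 to 44. The summed normalized counts of the endothelial markers PECAM1, CDH5 and VWF were higher in every sorbitol group than in its isotonic one. Parental cells had sums of 662 to 776 without and 1090 to 1230 with sorbitol, transfected cells 456 to 757 without and 1810 to 1940 with it, and null cells 421 to 512 without and 604 to 780 with it. The summed cartilage markers were 154 to 345 without and 282 to 307 with sorbitol in parental cells, 467 to 541 and 59.2 to 101 in transfected cells, and 85.3 to 106 and 49.8 to 71 in null cells, so they were lower with sorbitol in transfected and null cells and lower in null than in parental cells. The part of either list in the results was not tested. In bulk RNA a change in the share of a cell type and a change in RNA per cell cannot be told apart.

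The count of WNK2 did not follow the labels of the parental groups: transfected cells held less of it than untransfected cells in isotonic medium and more in sorbitol. Libraries labelled WT Ctr held 1217 to 2568 raw WNK2 counts and those labelled WNK2 trans Ctr 163 to 290. Libraries labelled WT Sor held 266 to 314, and those labelled WNK2 trans Sor 2237 to 3739. The WNK2- libraries held 322 to 503 counts, but a transcript without the deleted exon is still counted, so this does not check the deletion. The counts alone do not show which labels, if any, are wrong. Groups are named as labelled, and each sorbitol comparison of the genes described, in parental cells, is therefore also given against the other isotonic group. For the further genes of the pathway this is done for some values only, and the rest hold for the labelled groups.

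RefSeq promoter windows on GRCh38.p14, from 250 bases before to 50 after a transcription start, were at hand for AKR1B1 (2 starts), SGK1 (3 starts), SLC38A2 and SLC5A3, and not for SLC6A12, SLC6A6 and NFAT5. The stretch before 1 start of AKR1B1 and before 2 starts of SGK1 is shown because these 2 members were called higher in every sorbitol comparison below. Capitals mark GGAAA, the core that proteins of the NFAT family bind, on either strand (TTTCC on the other).
AKR1B1, minus strand, before its upstream start, chr7:134459240-134459489: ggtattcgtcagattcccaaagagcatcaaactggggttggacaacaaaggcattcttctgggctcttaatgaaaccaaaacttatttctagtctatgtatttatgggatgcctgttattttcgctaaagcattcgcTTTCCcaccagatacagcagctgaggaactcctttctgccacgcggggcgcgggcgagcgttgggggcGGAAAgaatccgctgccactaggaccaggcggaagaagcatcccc
SGK1, minus strand, before its upstream start, chr6:134318113-134318362: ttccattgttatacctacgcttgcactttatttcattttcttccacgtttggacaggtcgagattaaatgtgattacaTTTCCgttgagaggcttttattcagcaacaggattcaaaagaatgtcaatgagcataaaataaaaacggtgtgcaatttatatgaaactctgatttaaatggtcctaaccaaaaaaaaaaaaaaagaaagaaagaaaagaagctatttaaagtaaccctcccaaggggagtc
SGK1, minus strand, before its downstream start and without the 30 bases next to it, which lie in an exon of another transcript, chr6:134174897-134175116: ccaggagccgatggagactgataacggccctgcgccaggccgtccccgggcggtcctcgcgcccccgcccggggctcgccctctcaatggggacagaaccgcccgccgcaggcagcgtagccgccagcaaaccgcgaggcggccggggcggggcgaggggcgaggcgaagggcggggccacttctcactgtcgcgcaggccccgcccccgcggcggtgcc

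In the 250 bases before a start, GGAAA was present in 4 of the 7 windows of members, against 55.6% of all 35116 windows. Both AKR1B1 windows held it, the upstream one on both strands, 113 and 45 bases before the start. The AKR1B1 windows overlap, and the match at 45 bases is the same site as the match 184 bases before the other start. The number of windows with GGAAA thus counts this site in both. The site begins at position 134459284, where the annotated AKR1B1 gene on the minus strand begins. It therefore lies inside the annotated gene, not upstream of it. The 2 windows of the upstream and middle SGK1 starts held 1 match each. The longer TGGAAA was in 0 of 7, against 18% of all windows, and the TonE consensus, which contains TGGAAA, in 0 of 7 against 4.16%. TATAAA, also sought on either strand, was in all 3 SGK1 windows and in 10.7% of all. It lay on the strand of the gene only at the middle start, 15 bases before it, and on the other strand at the upstream start, 96 bases before it. At the downstream SGK1 start it lay 27 bases before the start, also on the other strand, in the stretch not printed. Counts per gene do not separate the starts.

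AKR1B1, aldose reductase (ENSG00000085662, chromosome 7, 134442350 to 134459284, minus strand, GENCODE 29 on GRCh38), gave the steepest response in 2 of the 3 sorbitol comparisons and the highest level per kilobase of exon of the 7 genes in sorbitol. Values are normalized counts, that is counts scaled to the mean effective library size. They were 9140, 10110, 7076 and 7281 in WT Ctr and 23260, 23730, 23910 and 23910 in WT Sor. They were 5182, 4572, 6250 and 5550 in WNK2 trans Ctr and 32840, 25970, 23820 and 24390 in WNK2 trans Sor. They were 10980, 10320, 10100 and 9440 in WNK2- Ctr and 46580, 45520, 45320 and 46410 in WNK2- Sor. Every sorbitol library lay above every isotonic library of the study, and the 4 WNK2- Sor libraries lay above all others.

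**Figure D1:**
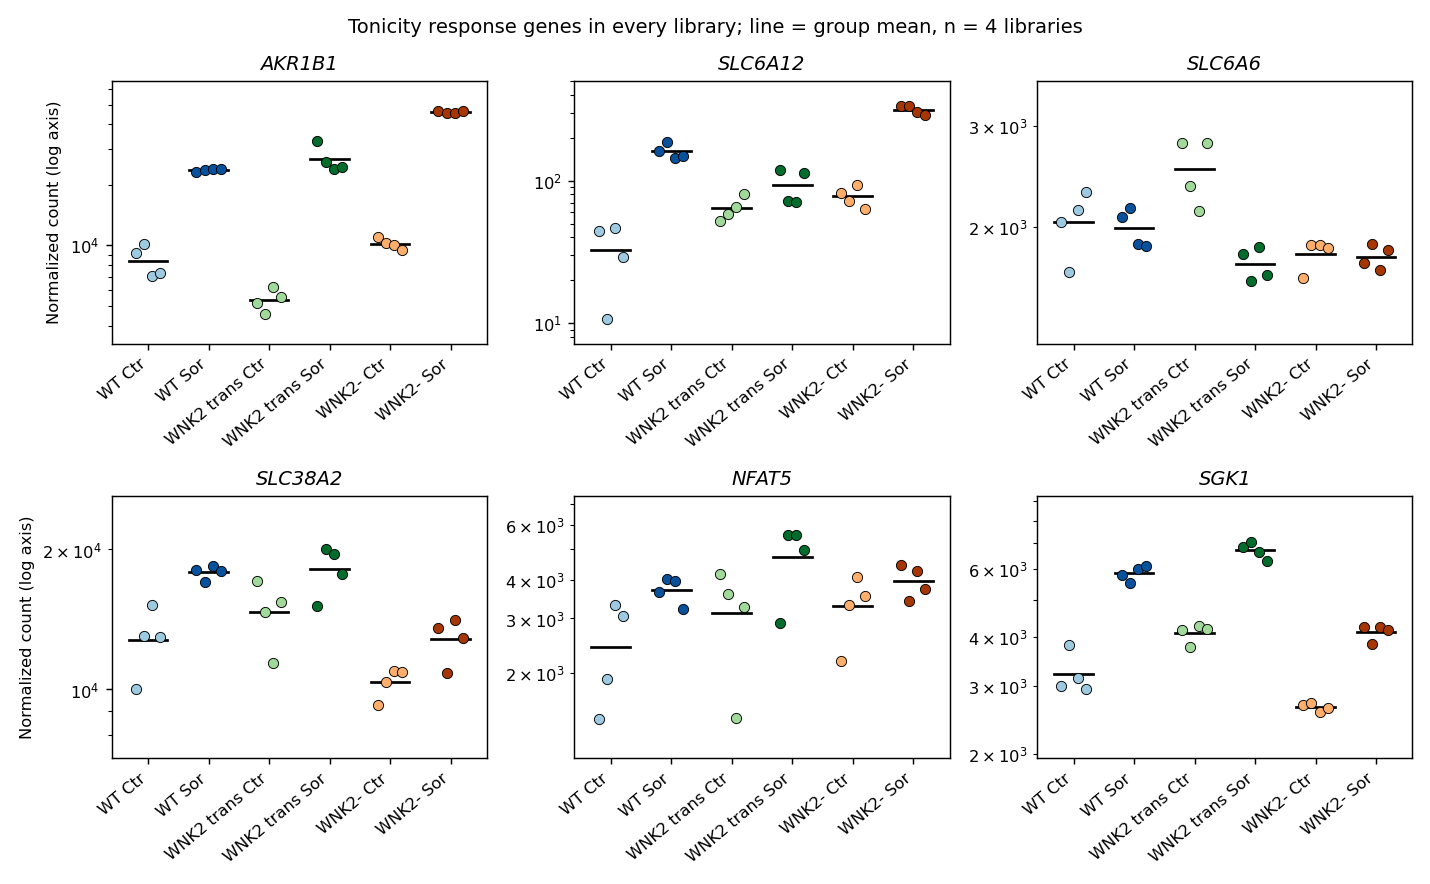
Normalized counts of the 6 tested genes (vertical log axis) in the 24 libraries, grouped by label on the horizontal axis; points are libraries and lines are group means, n = 4. AKR1B1 is lowest in WNK2 trans Ctr (mean 5388) and highest in WNK2- Sor (mean 45950), SLC6A12 is lowest in WT Ctr, and NFAT5 spreads widely inside groups.

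AKR1B1 rose 2.82-fold with sorbitol in WT cells (log2 fold change 1.5 ± 0.11 SE, edgeR adjusted p = 8.44e-10). It rose 4.97-fold in WNK2 trans cells (2.31 ± 0.12, adjusted p = 2.69e-14) and 4.50-fold in WNK2- cells (2.17 ± 0.12, adjusted p = 5.61e-13). Against the other isotonic group the rises were 4.40-fold for WT Sor (2.14 ± 0.12, adjusted p = 1.35e-12) and 3.18-fold for WNK2 trans Sor (1.67 ± 0.11, adjusted p = 2.78e-11). The 3 labelled responses rest on separate isotonic libraries, while exchanging the isotonic groups moved the WT response from the smallest of the 3 to near that of WNK2- cells.

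SLC6A12, the betaine carrier BGT1 (ENSG00000111181, chromosome 12, 190077 to 214570, minus strand), was the least abundant of the 6 tested genes, with raw counts between 9 and 493. Its normalized counts were 44.6, 10.7, 46.5 and 29.2 in WT Ctr and 162, 188, 144 and 149 in WT Sor. They were 52.2, 58.2, 65.2 and 80.4 in WNK2 trans Ctr and 118, 72.3, 70.8 and 114 in WNK2 trans Sor. They were 81.5, 72.0, 93.1 and 63.3 in WNK2- Ctr and 337, 334, 304 and 287 in WNK2- Sor. The WT and WNK2- groups did not overlap between media, and the WNK2 trans groups did.

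SLC6A12 rose 4.86-fold with sorbitol in WT cells (2.28 ± 0.26, edgeR adjusted p = 7.9e-07) and 4.07-fold in WNK2- cells (2.02 ± 0.23, adjusted p = 5.56e-07). In WNK2 trans cells its difference was 0.55 ± 0.24 and missed the threshold (adjusted p = 0.0663). SLC6A12 was called there with DESeq2 (0.57, adjusted p = 0.0285) and with upper-quartile factors (0.62, adjusted p = 0.0383). It was also called with a correction for GC content and length (0.66, adjusted p = 0.0107). With RLE factors, no count filter, a replicate block or only the groups compared it was not called. Against the other isotonic group it rose 2.51-fold for WT Sor (1.33 ± 0.24, adjusted p = 0.000318) and 2.84-fold for WNK2 trans Sor (1.5 ± 0.27, adjusted p = 8.25e-05). WT Ctr held the lowest values of the study, and 1 of its libraries, replicate 2, held 9 raw counts.

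SLC6A6, the taurine transporter (ENSG00000131389, chromosome 3, 14402576 to 14489349, plus strand), was not called higher with sorbitol in any group. Its normalized counts were 2039, 1669, 2138 and 2302 in WT Ctr and 2076, 2152, 1865 and 1850 in WT Sor. They were 2793, 2358, 2129 and 2793 in WNK2 trans Ctr and 1793, 1607, 1840 and 1645 in WNK2 trans Sor. They were 1630, 1857, 1858 and 1837 in WNK2- Ctr and 1730, 1863, 1680 and 1819 in WNK2- Sor. Only the WNK2 trans groups did not overlap. The log2 differences with sorbitol were -0.04 ± 0.10 in WT (adjusted p = 0.827) and -0.02 ± 0.10 in WNK2- cells (adjusted p = 0.937). In WNK2 trans cells it fell by 0.55 on the log2 scale (± 0.10, adjusted p = 6.96e-05), the groups not overlapping. Against the other isotonic group the difference was -0.34 ± 0.10 for WT Sor (adjusted p = 0.0192, called lower) and -0.24 ± 0.10 for WNK2 trans Sor (adjusted p = 0.0548, not called). Both calls were made against the WNK2 trans Ctr libraries, whose mean SLC6A6 level was the highest of the 6 groups. GRIP2, on the opposite strand, shares 239 bases of exon with SLC6A6 and had 11 to 180 raw counts, and the strand setting of the counting is not given in the sources used here.

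SLC5A3, the sodium and myo-inositol cotransporter (ENSG00000198743, chromosome 21, 34073570 to 34106262, plus strand), was listed at 0 in 24 of 24 libraries, where 3 counts, the upper limit that a count of 0 allows, correspond to 0.117 to 0.212 CPM (counts scaled to a common library total). This limit covers counting error only. MRPS6, a protein of the mitochondrial ribosome, overlaps it on the same strand, shares 273 bases of exon with it and was also listed at 0 in all 24 libraries. ENSG00000272657, a processed transcript on the same strand that shares 154 bases of exon with SLC5A3, had 16 to 240 raw counts. The part of overlapping annotation in the 0 of SLC5A3 was not tested, and the 0 is not read as absence of its transcript.

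SLC38A2, the system A amino acid carrier SNAT2 (ENSG00000134294, chromosome 12, 46358189 to 46372867, minus strand), moved less than AKR1B1. Its normalized counts were 10030, 13000, 15220 and 12970 in WT Ctr and 18100, 17040, 18420 and 17970 in WT Sor. They were 17120, 14690, 11420 and 15410 in WNK2 trans Ctr and 15140, 20080, 19590 and 17670 in WNK2 trans Sor. They were 9240, 10370, 10980 and 10890 in WNK2- Ctr and 13540, 10850, 14080 and 12890 in WNK2- Sor. Only the WT groups did not overlap between media.

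SLC38A2 rose 1.4-fold with sorbitol in WT cells (0.48 ± 0.12, edgeR adjusted p = 0.00519). In WNK2 trans cells it rose 1.24-fold (0.30 ± 0.12, adjusted p = 0.0402), a call lost in 12 of the 24 fits that left out 1 library. In WNK2- cells SLC38A2's difference of 0.31 ± 0.12 missed the threshold (adjusted p = 0.0918). Against the other isotonic group it was 0.29 ± 0.12 for WT Sor (adjusted p = 0.117) and 0.50 ± 0.12 for WNK2 trans Sor (adjusted p = 0.00203).

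NFAT5 (ENSG00000102908, chromosome 16, 69565094 to 69704666, plus strand), the transcription factor of the tonicity response, was not called with sorbitol in any labelled comparison. Its normalized counts were 1428, 1918, 3311 and 3059 in WT Ctr and 3645, 4002, 3950 and 3208 in WT Sor. They were 4179, 3590, 1437 and 3268 in WNK2 trans Ctr and 2901, 5555, 5553 and 4961 in WNK2 trans Sor. They were 2186, 3322, 4083 and 3539 in WNK2- Ctr and 4444, 3418, 4251 and 3724 in WNK2- Sor. The groups overlapped in every pair but WNK2- Sor (3418 to 4444) and WT Ctr (1428 to 3311). That pair, which differs in both cells and medium, was called (0.71 ± 0.27, edgeR adjusted p = 0.0282). The coefficient of variation within a group reached 37.9%, against at most 17.5% for AKR1B1 and 12.6% for SGK1, and 50.8% for SLC6A12 on its few counts.

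The log2 differences of NFAT5 with sorbitol were 0.61 ± 0.27 in WT (adjusted p = 0.0967), 0.60 ± 0.26 in WNK2 trans (adjusted p = 0.0611) and 0.27 ± 0.26 in WNK2- cells (adjusted p = 0.564). Against the other isotonic group they were 0.25 ± 0.26 for WT Sor (adjusted p = 0.596) and 0.97 ± 0.27 for WNK2 trans Sor (adjusted p = 0.00559, called higher). Leaving out WT Ctr replicate 3 brought the WT difference to 0.81 (adjusted p = 0.0428), and leaving out WNK2 trans Sor replicate 1 that of WNK2 trans to 0.76 (adjusted p = 0.0177). With all libraries and the labelled groups, NFAT5 was called higher in WT Sor with every gene kept in the fit (0.63, adjusted p = 0.0406), and in WNK2 trans Sor with DESeq2 (0.62, adjusted p = 0.0392), with upper-quartile factors (0.67, adjusted p = 0.0385) and with every gene kept (0.59, adjusted p = 0.0303). The NFAT5 calls in parental cells thus changed with the settings, and a missed threshold does not show that it stayed level.

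The spread of NFAT5 moved with a property of whole libraries. For each library the slope of its log2 counts, as deviations from the group mean, was taken over the GC content of 15980 tested genes, and ran from -0.24 to 0.29 per 10 points of GC. Over 24 libraries, within groups, NFAT5 (40.4% GC) correlated with this slope at r = -0.67 and SLC38A2 (38.1% GC) at r = -0.83, against 0.39 for AKR1B1 (53.5% GC) and 0.53 for SLC6A12 (55.4% GC). SGK1, with a GC content of 41.1%, close to that of NFAT5, had r = -0.4, and SLC6A6 (51% GC) had r = 0.22. NFAT5 and SLC38A2 correlated with each other at r = 0.89 within groups. These are descriptions over libraries that share their depth and composition. With each library corrected for its trend with GC and length, NFAT5 was called higher in WT Sor (0.48, adjusted p = 0.0209) but not in WNK2 trans Sor (0.28, adjusted p = 0.139) or WNK2- Sor (0.20, adjusted p = 0.379), while SLC38A2 was called in WT and WNK2- cells (0.49 and 0.23) and lost its call in WNK2 trans cells (0.09, adjusted p = 0.204).

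**Figure D2:**
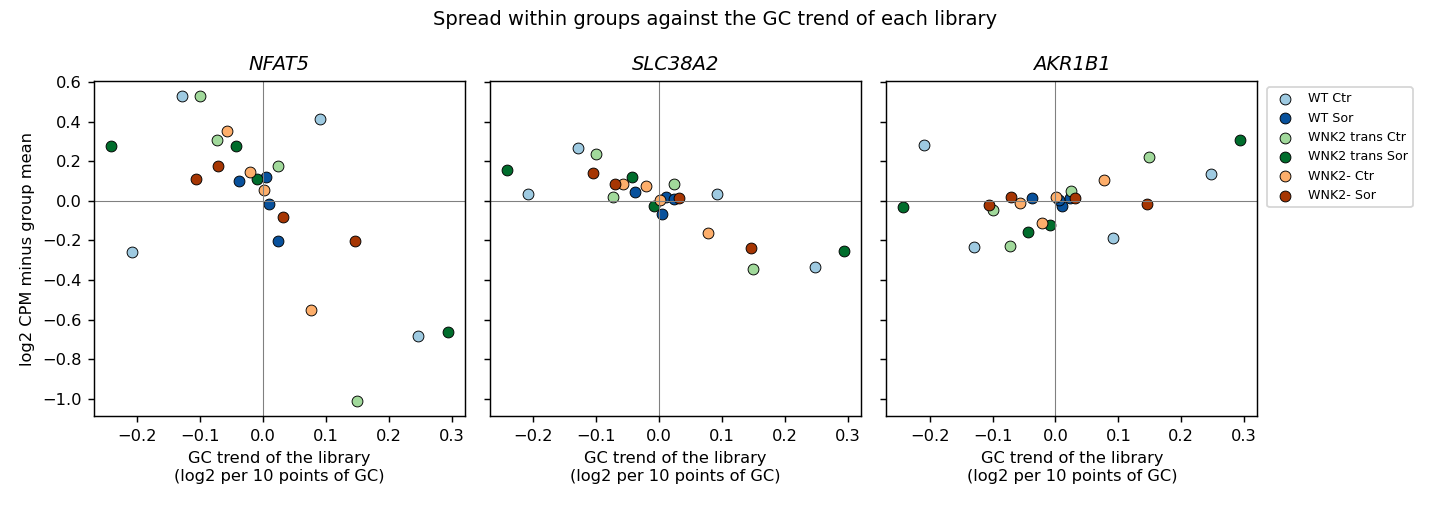
Deviation of log2 CPM from the group mean (vertical axis) for NFAT5, SLC38A2 and AKR1B1 against the GC slope of each library (horizontal axis, log2 per 10 points of GC); points are the 24 libraries, coloured by group. NFAT5 and SLC38A2 fall from left to right (r = -0.67 and -0.83) and AKR1B1 does not (r = 0.39).

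SGK1, serum and glucocorticoid regulated kinase (ENSG00000118515, chromosome 6, 134169246 to 134318112, minus strand), had normalized counts of 2989, 3816, 3148 and 2940 in WT Ctr and 5798, 5529, 5991 and 6121 in WT Sor. They were 4179, 3786, 4285 and 4209 in WNK2 trans Ctr and 6840, 7060, 6642 and 6297 in WNK2 trans Sor. They were 2671, 2711, 2560 and 2621 in WNK2- Ctr and 4253, 3852, 4243 and 4170 in WNK2- Sor. Within each cell background the sorbitol libraries lay above all isotonic ones.

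SGK1 rose 1.82-fold with sorbitol in WT cells (0.86 ± 0.08, edgeR adjusted p = 2.47e-08), 1.63-fold in WNK2 trans cells (0.71 ± 0.08, adjusted p = 5.94e-08) and 1.56-fold in WNK2- cells (0.65 ± 0.08, adjusted p = 1.59e-06). Taken against the other isotonic group, it rose 1.42-fold for WT Sor (0.51 ± 0.08, adjusted p = 4.62e-05) and 2.08-fold for WNK2 trans Sor (1.06 ± 0.08, adjusted p = 1.41e-10). With the GC and length correction described above, the rise in WNK2 trans cells was 0.42 (adjusted p = 0.00206).

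**Figure D3:**
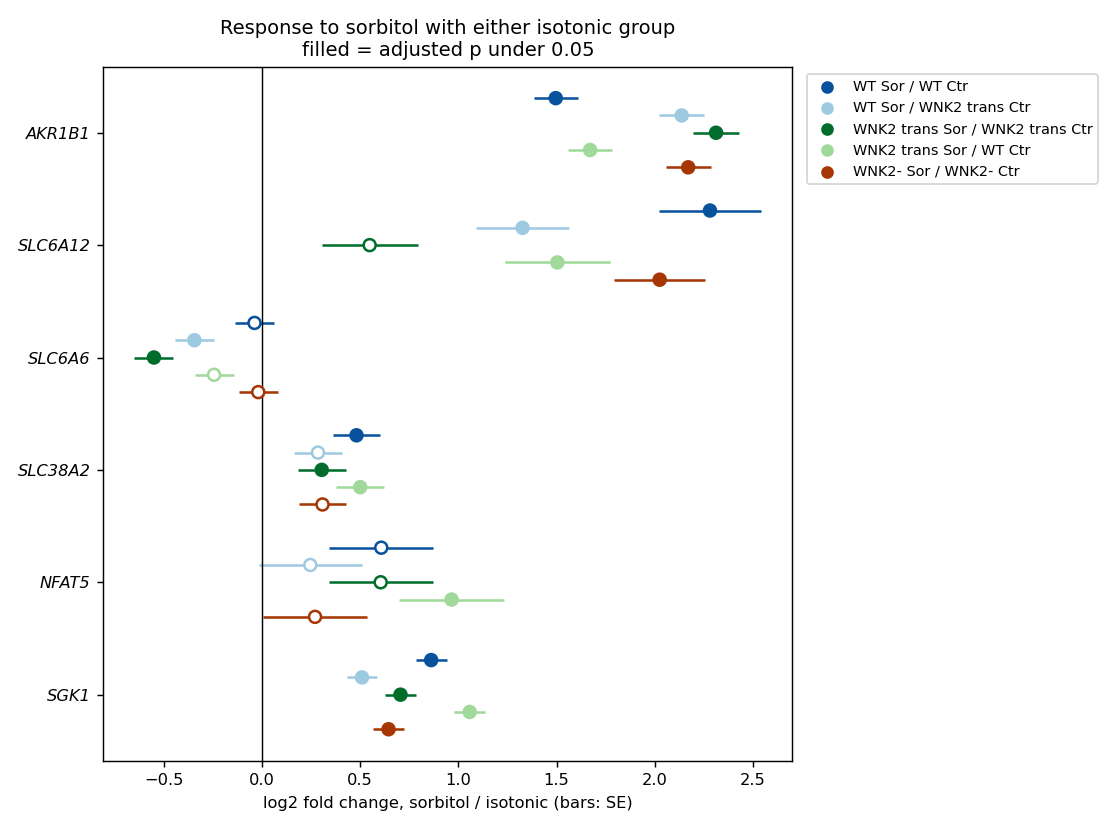
Log2 fold change with sorbitol (horizontal axis; bars are standard errors) for the 6 tested genes under the labelled isotonic group and the other one; filled points passed an adjusted p of 0.05. AKR1B1 (1.5 to 2.31) and SGK1 (0.51 to 1.06) are filled throughout, SLC6A12 lacks a call only for WNK2 trans Sor against WNK2 trans Ctr, and SLC6A6 lies below 0 (-0.55 to -0.02).

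Counted together, 4 of the 6 tested members were called with sorbitol in WT cells, all higher, where 24.1% of the 16600 tested genes were called in either direction. In WNK2 trans cells 4 were called, 3 higher and 1 lower, where 48% of all genes were called. In WNK2- cells 3 were called, all higher, against 14.9% of all genes. The median log2 difference of the 6 was 0.735 in WT, 0.58 in WNK2 trans and 0.48 in WNK2- cells, where the median over all tested genes was 0.04, 0.01 and 0.01. The groups did not overlap between media for 4 members in WT, 3 in WNK2 trans and 3 in WNK2- cells, where this held for 25.7%, 34.4% and 28.4% of all genes. When the isotonic groups were exchanged, 4 were called for WT Sor (3 higher, 1 lower, against 15.1% of all genes) and 5 for WNK2 trans Sor (all higher, against 39.2%). The 6 members are those with enough counts, not the whole set.

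The response in WNK2- cells was then compared with that in WT cells as an interaction. Of the 6 members 1 was called, AKR1B1, against 8.65% of all genes: its response was larger in WNK2- cells by 0.67 ± 0.16 on the log2 scale (edgeR adjusted p = 0.00729). With WNK2 trans Ctr as the isotonic group of WT Sor this difference was 0.03 ± 0.16 (adjusted p = 0.969), and 0 of 6 members were called, against 3.39% of all genes. At an unadjusted p under 0.05 edgeR gave 2 of the 6, SLC6A12 with a difference of 0.70 ± 0.33 and SLC6A6 with 0.325 ± 0.14. Their adjusted p in edgeR's fit over all genes were 0.338 and 0.276. By p they ranked only 2168 and 1740 among the 16600 tested genes, so many other genes passed this looser threshold too. The other differences under the labelled groups were -0.26 ± 0.34 for SLC6A12, 0.02 ± 0.14 for SLC6A6, -0.17 ± 0.17 for SLC38A2, -0.34 ± 0.37 for NFAT5 and -0.22 ± 0.11 for SGK1, with adjusted p from 0.236 to 0.954.

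The interaction of transfection with sorbitol called 3 of 6 members, against 35.5% of all genes. The response of AKR1B1 was larger in WNK2 trans than in WT cells by 0.82 ± 0.16 (edgeR adjusted p = 0.000223), that of SLC6A12 was smaller (-1.73 ± 0.36, adjusted p = 0.000515) and that of SLC6A6 lower (-0.51 ± 0.14, adjusted p = 0.00604). With the 2 isotonic groups exchanged, an alternative chosen after the data were seen, these were -0.47 ± 0.16 (adjusted p = 0.0807), 0.18 ± 0.36 (adjusted p = 0.842) and 0.10 ± 0.14 (adjusted p = 0.763), all of the opposite sign. SGK1 was then the 1 member called, larger by 0.55 ± 0.11 (adjusted p = 0.00327), against 5.46% of all genes.

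Levels in WNK2- cells were also compared with those of WT cells in the same medium. In sorbitol, a comparison that no isotonic group enters, 4 of 6 members were called, 2 higher and 2 lower, against 46.3% of all genes. WT Sor is, however, 1 of the parental groups whose WNK2 counts did not follow the labels. WNK2 itself was not called between WNK2- Sor and WT Sor (0.25 ± 0.20, edgeR adjusted p = 0.33). AKR1B1 was 1.94-fold higher in WNK2- Sor than in WT Sor (0.96 ± 0.11, edgeR adjusted p = 1.01e-07) and SLC6A12 1.96-fold higher (0.97 ± 0.22, adjusted p = 0.000733). SGK1 was 1.42-fold lower (-0.51 ± 0.08, adjusted p = 8.17e-06) and SLC38A2 1.39-fold lower (-0.48 ± 0.12, adjusted p = 0.00213). The 4 libraries of one group did not overlap those of the other for any of these 4 genes, and this held for 53.9% of all genes. SLC6A6 and NFAT5 differed by -0.16 ± 0.10 (adjusted p = 0.186) and 0.10 ± 0.26 (adjusted p = 0.791). Against WNK2 trans Sor, AKR1B1 and SLC6A12 were also higher in WNK2- Sor (0.78 ± 0.11 and 1.75 ± 0.23, adjusted p = 4.87e-06 and 1.48e-06). SGK1 and SLC38A2 were also lower there (-0.70 ± 0.08 and -0.50 ± 0.12, adjusted p = 1.24e-07 and 0.00243), and SLC6A6 and NFAT5 were not called.

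In isotonic medium 4 of 6 members were called in WNK2- Ctr against WT Ctr, 2 higher and 2 lower, against 42.1% of all genes. SLC6A12 was 2.35-fold higher (1.23 ± 0.27, edgeR adjusted p = 0.000579) and SGK1 1.22-fold lower (-0.29 ± 0.08, adjusted p = 0.0044). AKR1B1 was higher by 0.28 ± 0.11 (adjusted p = 0.0426) and SLC38A2 lower by 0.30 (-0.30 ± 0.12, adjusted p = 0.0456), but both groups overlapped, and the calls were lost in 5 and 17 of the 24 fits that left out 1 library. Against WNK2 trans Ctr, 4 members were called where 47.7% of all genes were: AKR1B1 higher by 0.92 ± 0.11 (adjusted p = 1.89e-07), and SGK1, SLC38A2 and SLC6A6 lower (-0.64 ± 0.08, -0.50 ± 0.12 and -0.49 ± 0.10, adjusted p = 2.47e-07, 0.00141 and 0.000238). SLC6A12 then differed by 0.28 ± 0.24 (adjusted p = 0.371). AKR1B1 was thus higher, and SGK1 and SLC38A2 lower, in WNK2- cells in both media and against either isotonic group, though against WT Ctr the isotonic calls of AKR1B1 and SLC38A2 were weak. With only the groups compared both were lost (adjusted p = 0.1 and 0.0798), and that of SLC38A2 was also lost with RLE factors (0.0534), upper-quartile factors (0.0565), no count filter (0.061), at least 10 counts in every library (0.0674) and the replicate block (0.0584).

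**Figure D4:**
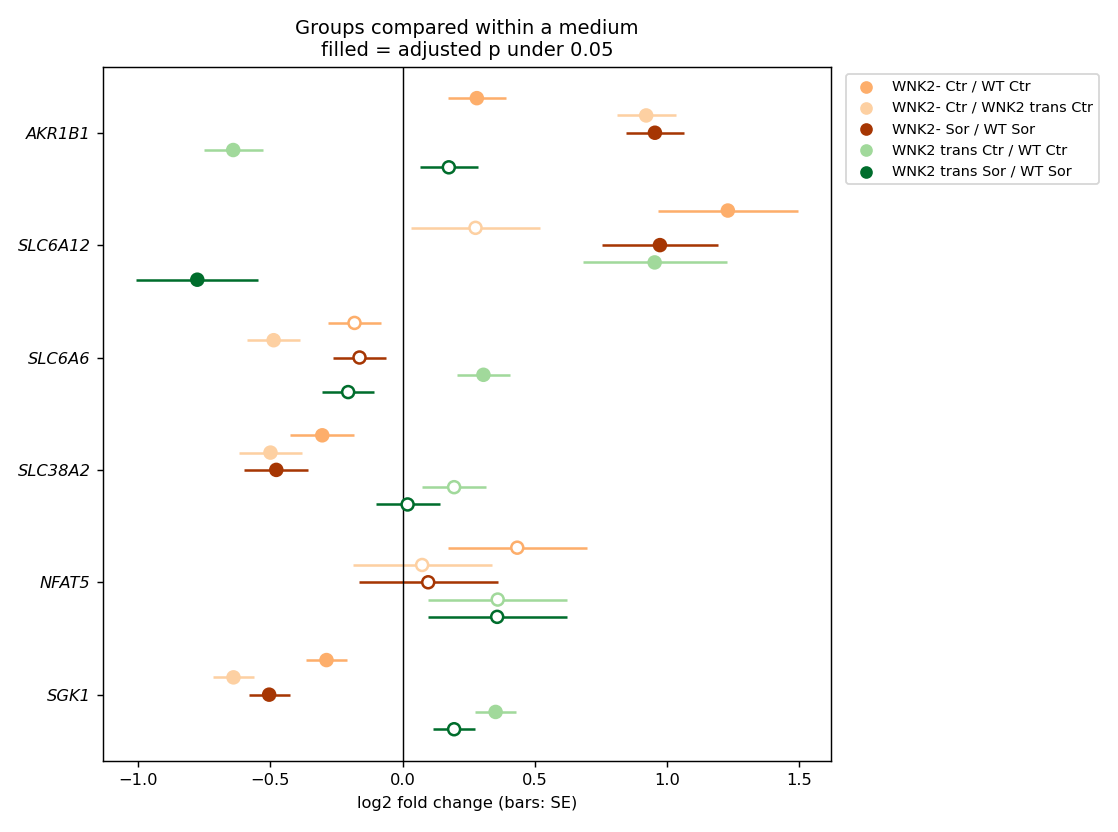
Log2 fold change between cell backgrounds in the same medium (horizontal axis; bars are standard errors) for the 6 tested genes; filled points passed an adjusted p of 0.05. In sorbitol AKR1B1 (0.96) and SLC6A12 (0.97) were higher and SLC38A2 (-0.48) and SGK1 (-0.51) lower in WNK2- than in WT cells.

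WNK2 trans cells were compared with WT cells in the same way. In isotonic medium 4 of 6 members were called, against 12.5% of all genes: AKR1B1 was 1.56-fold lower in the libraries labelled WNK2 trans Ctr than in those labelled WT Ctr (-0.64 ± 0.11, edgeR adjusted p = 0.000215), and SLC6A12 1.94-fold (0.95 ± 0.27, adjusted p = 0.0208), SGK1 1.28-fold (0.35 ± 0.08, adjusted p = 0.00293) and SLC6A6 1.24-fold higher (0.31 ± 0.10, adjusted p = 0.0428). WNK2 itself was 10-fold lower in WNK2 trans Ctr here (-3.32 ± 0.21, adjusted p = 3.88e-11), so the directions hold for the labels only. Without WT Ctr replicate 2 the SLC6A12 difference was 0.66 (adjusted p = 0.0736), without WNK2 trans Ctr replicate 4 it was 0.84 (adjusted p = 0.0799), and the SLC6A6 call was lost in 13 of the 24 fits. With only the groups compared the calls of SGK1, SLC6A12 and SLC6A6 were lost (adjusted p = 0.147, 0.188 and 0.279), leaving that of AKR1B1, and the SGK1 and SLC6A6 groups overlapped. In sorbitol 1 of 6 was called, against 31.7% of all genes: SLC6A12 was 1.71-fold lower in WNK2 trans Sor (-0.78 ± 0.23, adjusted p = 0.0123). AKR1B1 differed by 0.17 ± 0.11 (adjusted p = 0.233) and SGK1 by 0.20 ± 0.08 (adjusted p = 0.0575) there.

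The order of the 6 group means can be read with these tests. For AKR1B1 it was WNK2- Sor, WNK2 trans Sor, WT Sor, WNK2- Ctr, WT Ctr and WNK2 trans Ctr, where only the 2 sorbitol groups of parental cells, neighbours in this order, did not differ (adjusted p = 0.233). For SLC6A12 it was WNK2- Sor, WT Sor, WNK2 trans Sor, WNK2- Ctr, WNK2 trans Ctr and WT Ctr, where WNK2 trans Sor, WNK2- Ctr and WNK2 trans Ctr did not differ from their neighbours in between (adjusted p = 0.391 and 0.371). For SGK1 it was WNK2 trans Sor, WT Sor, WNK2- Sor, WNK2 trans Ctr, WT Ctr and WNK2- Ctr, where the first pair (adjusted p = 0.0575) and the third (adjusted p = 0.962) did not differ. SLC38A2 ran from WNK2 trans Sor through WT Sor, WNK2 trans Ctr, WNK2- Sor and WT Ctr to WNK2- Ctr and only the last step differed (adjusted p = 0.0456). SLC6A6 ran from WNK2 trans Ctr through WT Ctr, WT Sor, WNK2- Ctr and WNK2- Sor to WNK2 trans Sor, and only the first step differed (adjusted p = 0.0428). No step of NFAT5 differed, from WNK2 trans Sor through WNK2- Sor, WT Sor, WNK2- Ctr and WNK2 trans Ctr to WT Ctr, with adjusted p from 0.411 to 0.841. Per kilobase of exon, AKR1B1 in WT Sor averaged 6476 normalized counts, SLC38A2 2708, SGK1 586, SLC6A6 241, NFAT5 226 and SLC6A12 30.4.

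The genes whose profile was most like that of each member were sought over the 24 libraries among the tested genes with a mean log2 CPM of 3 or more. For AKR1B1 they were RND3 (r = 0.953) and SH3KBP1 (r = 0.948), for SLC6A12 ZNF425 (r = 0.9) and EDA (r = 0.89), and for SGK1 SFRP1 (r = 0.934) and DUSP6 (r = 0.933). These likenesses followed the groups: within groups the same r were -0.328, 0.43, 0.355, 0.345, 0.292 and 0.652. For NFAT5 they were RICTOR (r = 0.949) and DOP1A (r = 0.947), for SLC38A2 PTPN12 (r = 0.953) and NAMPT (r = 0.924), and for SLC6A6 CDC42SE1 (r = 0.89) and LTBP2 (r = 0.881). For NFAT5 the likeness was as high within groups (r = 0.951 and 0.938) as over all libraries.

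The wider pathway was described with 62 further genes in 6 lists, of which 55 were tested. With sorbitol in WT cells 15 of the 55 were called higher and 11 lower, with a median of 0.13. In WNK2 trans cells 10 were higher and 19 lower with a median of 0.00, and in WNK2- cells 9 higher and 5 lower with a median of 0.12. With the isotonic groups exchanged, 6 were higher and 8 lower for WT Sor, and 14 higher and 13 lower for WNK2 trans Sor. The shares called under the labelled groups can be read against the 24.1%, 48% and 14.9% of all genes given above. Those with the isotonic groups exchanged can be read against 15.1% for WT Sor and 39.2% for WNK2 trans Sor.

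Among carriers and enzymes of betaine, taurine and glycerophosphocholine 2 of 8 were called higher and 1 lower in WT cells, 2 higher and 2 lower in WNK2 trans cells, and 4 higher and 1 lower in WNK2- cells. SLC6A13, the GABA and taurine carrier GAT2 that lies beside SLC6A12 on the same strand (chromosome 12, 220621 to 262873), had 0 to 2.65 normalized counts in WT Ctr and 7.17 to 14.2 in WT Sor. It had 0.819 to 3.73 and 14.7 to 30.1 in WNK2 trans Ctr and Sor, and 3.33 to 9.48 and 11.2 to 22.5 in WNK2- Ctr and Sor. It rose in all 3 comparisons (3.02 ± 0.65, 3.30 ± 0.54 and 1.55 ± 0.46, edgeR adjusted p = 0.00147, 1.98e-05 and 0.0213) and against the other isotonic group (2.25 ± 0.58 and 4.08 ± 0.61, adjusted p = 0.00837 and 9.56e-06), on few counts. ALDH7A1, which oxidises betaine aldehyde, fell by 0.36 in WT (± 0.09, adjusted p = 0.00416) and by 0.51 in WNK2- cells (± 0.09, adjusted p = 0.000184), and was 0.10 higher in WT Sor than in WNK2 trans Ctr (adjusted p = 0.494). CDO1, which starts the synthesis of taurine from cysteine, fell by 0.89 in WNK2 trans cells (± 0.24, adjusted p = 0.00393) and rose by 1.403 in WNK2- cells (± 0.31, adjusted p = 0.00214). The rise in WNK2- cells was on few counts, from 5.83 to 9.48 normalized counts to 16.7 to 29.9. Every parental library held more CDO1 than this, the lowest being 32.8 in WNK2 trans Sor.

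Among genes of polyol and inositol metabolism 2 of 8 were called higher and 2 lower in WT cells, the same numbers in WNK2 trans cells, and 0 in WNK2- cells. ISYNA1, which makes inositol phosphate, rose 2.95-fold in WT cells (1.56 ± 0.17, edgeR adjusted p = 4.7e-07) and by 1.02 against WNK2 trans Ctr (± 0.17, adjusted p = 0.000104). Its difference was 0.375 in WNK2- cells (adjusted p = 0.154), where it was the 1 gene of the list with an unadjusted p under 0.05 by edgeR, and -0.165 in WNK2 trans cells (adjusted p = 0.44). SORD, sorbitol dehydrogenase, which turns sorbitol into fructose, fell by 0.50 in WT cells (± 0.12, edgeR adjusted p = 0.00472) and by 0.45 in WNK2 trans cells (± 0.12, adjusted p = 0.00446). Its difference in WNK2- cells was -0.03 ± 0.12 (adjusted p = 0.9). Its mean normalized count was 246 in WNK2 trans Sor, 337 in WNK2 trans Ctr and 390 in WT Ctr. AKR1B10, a close relative of AKR1B1, rose by 1.67 in WT cells (± 0.56, adjusted p = 0.0319) from 0 to 11.9 normalized counts to 16.7 to 24.5. In WNK2 trans cells SLC5A11, a second myo-inositol cotransporter, rose by 2.19 (± 0.60, adjusted p = 0.00391), on 1.15 to 41.3 normalized counts, and IMPA2, an inositol monophosphatase, fell by 0.47 (± 0.12, adjusted p = 0.00226). Set against the other isotonic group, the SORD call of WT cells and the SLC5A11 call were lost (adjusted p = 0.129 and 0.178), and so was that of AKR1B10 (adjusted p = 0.213).

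Among amino acid transporters 5 of 7 were called higher and 0 lower in WT cells, 2 higher and 2 lower in WNK2 trans cells, and 1 higher and 1 lower in WNK2- cells. SLC38A1, the relative of SLC38A2, was called higher in all 3 (0.58 ± 0.15, 0.65 ± 0.15 and 0.44 ± 0.15, edgeR adjusted p = 0.00594, 0.000896 and 0.048) and against the other isotonic group (0.52 ± 0.15 and 0.71 ± 0.15, adjusted p = 0.0174 and 0.000562). SLC7A11, the cystine and glutamate exchanger, rose by 1.395 in WT cells (± 0.34, adjusted p = 0.00371), but by 0.47 ± 0.32 against WNK2 trans Ctr it was not called (adjusted p = 0.372). SLC1A5, a glutamine carrier, rose by 0.38 in WT cells (± 0.14, adjusted p = 0.0455), which was -0.18 ± 0.14 against WNK2 trans Ctr (adjusted p = 0.424). It fell by 0.95 in WNK2 trans cells (± 0.14, adjusted p = 4.2e-06) and by 0.39 against WT Ctr (± 0.14, adjusted p = 0.0277), and SLC7A5, a carrier of large neutral amino acids, fell by 0.89 in WNK2- cells (± 0.14, adjusted p = 6.18e-05).

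Among the other NFAT factors and regulators of NFAT5 1 of 12 was called higher and 3 lower in WT cells, 0 higher and 6 lower in WNK2 trans cells, and 0 higher and 3 lower in WNK2- cells. NFATC2, a calcium-regulated NFAT factor, fell in all 3 comparisons. It fell by 0.61 in WT cells (± 0.12, edgeR adjusted p = 0.00078), by 0.91 in WNK2 trans cells (± 0.12, adjusted p = 1.1e-06) and by 0.78 in WNK2- cells (± 0.12, adjusted p = 5.07e-05). NFATC1 fell by 1.16 in WNK2 trans cells (± 0.11, adjusted p = 5.98e-09) and by 0.48 in WNK2- cells (± 0.11, adjusted p = 0.00347). It was not called in WT cells (0.18 ± 0.11, adjusted p = 0.256). The 1 gene called higher was CSNK1A1, a casein kinase, in WT cells (0.29 ± 0.10, adjusted p = 0.0288), which was 0.10 ± 0.10 against WNK2 trans Ctr (adjusted p = 0.532).

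Among relatives, activators and substrates of SGK1 2 of 9 were called higher and 1 lower in WT cells, 1 higher and 3 lower in WNK2 trans cells, and 2 higher and 0 lower in WNK2- cells. NEDD4L, the ubiquitin ligase that SGK1 phosphorylates, had 612 to 892 normalized counts in transfected cells without sorbitol and 3850 to 5350 with it, and 3190 to 3270 and 5710 to 6280 in null cells. In WT cells it had 1230 to 1530 without and 1240 to 1520 with sorbitol. It rose by 2.59 in WNK2 trans cells (± 0.11, edgeR adjusted p = 2.68e-15) and by 0.91 in WNK2- cells (± 0.11, adjusted p = 1.05e-06). In WT cells its difference was -0.02 ± 0.11 (adjusted p = 0.92), and 0.79 ± 0.11 against WNK2 trans Ctr (adjusted p = 1.47e-05). TSC22D3, a glucocorticoid-induced gene like SGK1, rose by 0.82 in WT cells (± 0.13, adjusted p = 8.8e-05) and fell by 0.84 in WNK2 trans cells (± 0.13, adjusted p = 1.37e-05). SGK3 fell by 0.91 in WT cells (± 0.25, adjusted p = 0.00945), which was -0.23 ± 0.26 against WNK2 trans Ctr (adjusted p = 0.624).

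Among other genes known to be induced by tonicity 3 of 11 were called higher and 4 lower in WT cells, 3 higher and 4 lower in WNK2 trans cells, and 2 higher and 0 lower in WNK2- cells. HSPA1B, an inducible HSP70, fell by 0.69 in WT cells (± 0.13, edgeR adjusted p = 0.000471), and it shares near-identical sequence with HSPA1A, so how their reads were divided is uncertain. HSPA4L, a chaperone of the HSP110 family that osmotic stress induces, rose by 0.92 in WNK2 trans cells (± 0.15, adjusted p = 1.82e-05), which was 0.21 ± 0.15 against WT Ctr (adjusted p = 0.271). HSPA4L fell by 0.45 in WT cells (± 0.15, adjusted p = 0.0287), which was 0.26 ± 0.15 against WNK2 trans Ctr (adjusted p = 0.273). B3GAT3, a glucuronyltransferase of glycosaminoglycan synthesis, fell by 1.006 in WNK2 trans cells (± 0.23, adjusted p = 0.000823). S100A4, a calcium-binding protein, rose by 1.10 in WNK2- cells (± 0.27, adjusted p = 0.00542).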

How the data were processed

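RNA from T/C-28a2 cells was sequenced after poly(A) selection, and the deposited files hold raw read counts per Ensembl gene, 1 file a library. Per the submitters' processing notes, the authors used FastQC 0.11.9, HISAT2 2.2.1, HTSeq 2.0.2, DESeq2 1.38.3 and GRCh38. The strand setting of the counting is not given in the sources used here, so reads of a gene and of an overlapping gene on the other strand may not be separated.

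Symbols and positions were taken from GENCODE 29, which holds 58279 of the 62703 identifiers, and symbols from gene name tables for 62625, leaving 78 without one. Counts of all 24 libraries were fitted with the quasi-likelihood test of edgeR 4.0.16 in R 4.3.3, with 1 mean for each of the 6 groups, TMM factors, and genes kept by filterByExpr (minimum count 10, minimum total 15). P-values were adjusted by Benjamini-Hochberg over the 16600 tested genes within each comparison, with a threshold of 0.05, and standard errors were derived from the log2 fold change and F. The fit was tested on simulated counts. Total counts were 14153002 to 25664619 a library, and intervals and limits from counts cover counting error only. Comparisons that use the same libraries share them and are not independent.

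Alternatives were DESeq2 1.42.0, other scaling factors, other filters, a replicate block, a correction for GC content and length, only the groups compared, the other isotonic group, and leaving out each library. The exchange of isotonic groups in the transfection interaction, and for the companion lists and the order of levels, was added after the data were seen. Named companions are, in each list and sorbitol comparison, the called genes with the largest rise and fall, and a few other values of these genes; ISYNA1 was named after its value was seen. A gene that this rule names is not reported here. The members and lists were chosen with earlier results of these data known.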

Additional observations from a re-analysis of the deposited data

Results flagged for a closer look

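In 36 sets of 4 libraries (6 genes in 6 groups), 1 held a library far from the other three: SLC6A6 in WNK2- Ctr replicate 1 was the lowest at 1630 normalized counts, the nearest being 1837, a gap of 0.908 of the whole range. Chance alone marks about 5% of such sets.

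For 2 contrasts the response to sorbitol differed between cell backgrounds by the test of the interaction (edgeR). AKR1B1 responded more in WNK2- than in WT cells, by 0.67 (adjusted p = 0.00729), and more in WNK2 trans than in WT cells, by 0.82 (adjusted p = 0.000223). SLC6A12 and SLC6A6 gave interactions of -1.73 (adjusted p = 0.000515) and -0.51 (adjusted p = 0.00604) with transfection. None of these 4 was called with the other isotonic group, where the values were 0.03, -0.47, 0.18 and 0.10.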

How the results depend on the processing

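With the other isotonic group, members called went from 1 to 0 in the genotype interaction and from 3 to 1 in the transfection interaction, and companion genes called with sorbitol in WT cells from 26 to 14. The share of all genes called with sorbitol in WT cells went from 24.1% to 15.1%. The genotype interaction then changed sign for SLC6A12 (0.70), SLC38A2 (0.022), NFAT5 (0.023) and SGK1 (0.14), and the transfection interaction for AKR1B1 (-0.47), SLC6A12 (0.18), SLC6A6 (0.10), SLC38A2 (0.21), NFAT5 (0.72) and SGK1 (0.55). Members called in WNK2 trans against WT in sorbitol, 1 in the report, were 2 with DESeq2, 2 with RLE factors, 2 with upper-quartile factors and 3 with the GC and length correction, which also called 2 in the genotype interaction. Members called in isotonic medium, 4 in the report, were 2 for WNK2- against WT with at least 10 counts in every library and 2 with only the groups compared, and 1 for WNK2 trans against WT with only the groups compared. The filter of at least 10 counts left SLC6A12 untested, because WT Ctr replicate 2 held 9 raw counts of it. For WNK2- against WT the call lost under that filter was that of SLC38A2. Values near 0 changed sign: the NFAT5 transfection interaction (0.01 with DESeq2, 0.01 with RLE and 0.03 with upper-quartile factors), SLC6A6 with sorbitol in WNK2- cells (0.027 with upper-quartile factors, 0.014 with at least 10 counts) and in WT cells (0.005 with at least 10 counts), SLC38A2 in WNK2 trans against WT in sorbitol (-0.004 without a filter, -0.13 with the GC and length correction), the SLC6A6 genotype interaction (-0.028 without a filter) and NFAT5 in WNK2- against WT in sorbitol (-0.004 with the GC and length correction). The cause was not tested.

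Leaving out each library in turn gave 4 to 5 members called with sorbitol in WT, 3 to 5 in WNK2 trans and 3 to 4 in WNK2- cells. It gave 2 to 4 for WNK2- against WT in isotonic medium and 4 in sorbitol, 2 to 4 for WNK2 trans against WT in isotonic medium and 1 to 2 in sorbitol, and 1 to 2 and 3 to 4 for the genotype and transfection interactions. Companion genes called were 17 to 28 in WT (17 without WT Ctr replicate 2), 26 to 31 in WNK2 trans and 10 to 14 in WNK2- cells. Ranges that crossed 0 were -0.117 to 0.036 and -0.072 to 0.006 for SLC6A6 with sorbitol in WT and WNK2- cells, -0.041 to 0.078 for SLC38A2 in WNK2 trans against WT in sorbitol, -0.509 to 0.026 and -0.062 to 0.091 for the genotype interactions of SLC6A12 and SLC6A6, and -0.243 to 0.186 for the NFAT5 transfection interaction. SLC6A12 with sorbitol in WNK2 trans cells was called without WT Ctr replicate 2 (adjusted p = 0.02), WNK2 trans Ctr replicate 4 (0.0493) or WNK2 trans Sor replicates 2 or 3 (0.0432 and 0.0434). It was also called with DESeq2 (0.0285), upper-quartile factors (0.0383) and the GC and length correction (0.0107). NFAT5 with sorbitol in WNK2 trans cells was called with DESeq2 (adjusted p = 0.0392). SGK1 and AKR1B1 with sorbitol kept their calls in all these fits.

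Replicate numbers did not pair the samples: correlations of same-numbered deviations ran from -0.287 to 0.458, and in no pair of groups were all over 0.1. With the replicate block, members called were 4, 3, 3 with sorbitol in WT, WNK2 trans and WNK2- cells, 3 and 4 for WNK2- against WT in isotonic medium and sorbitol, 3 and 1 for WNK2 trans against WT, and 1 and 3 for the interactions. Companion genes called were then 26, 30 and 14, and 10 neighbouring group levels differed. Depth limited SLC6A12 and SLC6A13 most.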
